A study of Mus musculus with 65 samples.

Results

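Transcripts of 7 imprinted genes were followed in 65 single HSD2 neurons: Peg3, Ndn, Snrpn, Meg3, Nnat, Gnas and Impact. Imprinted genes are read mainly from the chromosome inherited from one parent, because methylation set in the egg or the sperm marks the copies differently. They sit in clusters that share a control region, and many of them are read strongly in brain, where they have been tied to feeding, growth and the control of hormone release. These values are totals of both parental copies, so they say nothing of which copy was read. The 7 were picked by name with their levels in these cells already known, and the split of the low-sodium cells used here was set after the values were seen, so levels and split are descriptions with no test. All 7 of the 7 names were found among 12015 lines of genes. The table repeats the name Gnas on 3 lines, which are given apart, and the other 6 have 1 line each among 11875 uniquely named genes.

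HSD2 neurons lie in the NTS (nucleus of the solitary tract), where visceral signals enter the brainstem, and make the enzyme HSD2 (gene Hsd11b2), which lets their mineralocorticoid receptor respond to aldosterone. Every cell was a tdTomato-positive neuron from a male mouse of mixed strain that carried Hsd11b2-Cre and the Ai9 tdTomato reporter, picked by hand after papain digestion. The label marks any cell in which Cre had acted, also earlier in life, and the protocol text names Arc-ME as the digested tissue while the tissue label of every cell is the NTS. On standard chow there were 33 cells, and on the low-sodium diet 32. No animal is named in the labels, so a diet is 1 sample and cells are not its replicates. No test between diets was run, and each SD is the spread between cells, which can be technical. Neither the age of the mice nor the length of the diet is stated in the sources used here.

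Depth, taken from the smallest step of values in a cell as 1 read, ran from 50064 to 5319278 reads in listed genes, with a median of 651503. Levels are log2(CPM + 1), where CPM are reads scaled by the authors to 1000000 (counts per 1000000) with a total that no source used here states. Summed CPM lay above 1200000 in 9 cells of the low-sodium group (1393471 to 2170050) and at 754874 to 1147326 in the other 56 cells. These 9 are called the high-sum cells here and the other 23 low-sodium cells the usual-sum cells, and the members' diet differences and the counts over gene lists are given with and without the 9. They carry the label numbers 42, 45 to 51 and 57, which are 9 of the 10 low-sodium cells numbered 42 or more. At least 3 neuronal markers and at least 3 HSD2 markers exceeded 10 CPM in all 65 cells, and Hsd11b2 itself averaged 8.69 ± 1.01 in chow, 8.59 ± 0.97 in usual-sum and 10.20 ± 1.14 in high-sum cells (SD over 33, 23 and 9 cells). Markers of a non-neuronal type passed the same limit in 37 cells, with astrocyte markers in 29 and oligodendrocyte markers in 24, and 0 of the 8 microglia markers are among the listed genes.

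Start-site sequence is shown for the 3 members whose domains give the contrasts described below, from RefSeq on GRCm38.p6, 5′ to 3′ along the named gene's strand, with CpG, the pair of bases that imprinting methylates, in capitals. Peg3 and Usp29 are read away from each other from a shared stretch of 96 bases on chr7:6730463-6730558, and Peg3 itself runs over chr7:6703892-6730462 on the minus strand. Meg3 covers chr12:109540996-109571729 and Nnat chr2:157560078-157562525, both on the plus strand, and the 250 bases before each start are given.
Peg3: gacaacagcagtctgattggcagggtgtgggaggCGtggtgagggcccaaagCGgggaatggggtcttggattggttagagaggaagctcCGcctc
Meg3: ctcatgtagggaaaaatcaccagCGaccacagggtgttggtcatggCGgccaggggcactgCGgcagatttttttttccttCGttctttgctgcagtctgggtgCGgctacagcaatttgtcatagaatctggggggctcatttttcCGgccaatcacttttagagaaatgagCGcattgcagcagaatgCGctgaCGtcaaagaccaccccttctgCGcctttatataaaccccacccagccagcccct
Nnat: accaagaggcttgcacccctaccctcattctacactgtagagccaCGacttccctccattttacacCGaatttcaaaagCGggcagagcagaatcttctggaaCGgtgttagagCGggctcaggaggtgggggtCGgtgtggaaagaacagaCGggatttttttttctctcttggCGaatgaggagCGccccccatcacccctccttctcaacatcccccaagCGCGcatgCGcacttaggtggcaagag
The stretch between Peg3 and Usp29 holds 3 CpG. The Meg3 window, chr12:109540746-109540995, holds 10, and 37.8% of 32851 windows of 250 bases before mouse starts hold as many or more. The Nnat window, chr2:157559828-157560077, holds 12, a count reached by 33.5% of windows. Methylation was not measured in these cells.

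Most members were among the highest lines of these neurons. Ranked by mean log2(CPM + 1) over 65 cells, Meg3 stood 5 from the top, the second Gnas line 10, Peg3 17, Ndn 43, Snrpn 56 and Impact 90, while Nnat stood 2248. Within a cell the median rank of Meg3 was 3. The 7 names together took 0.484 to 2.21% of a cell's CPM, with medians of 1.01% in chow, 0.80% in usual-sum and 1.59% in high-sum cells. Per kilobase of exonic sequence the order changed: the median over cells was 404 CPM for Snrpn, 293 for Ndn, 217 for Meg3, 169 for Impact, 137 for Peg3 and 78.4 for Nnat. Snrpn and Ndn, with 2159 and 3694 exonic bases, thus stood above Meg3 and Peg3, with 15684 and 8694. These lengths are from GENCODE, and the RefSeq gene of Ndn spans only 1652 bases, with which Ndn would stand above Snrpn. Each step between neighbours in the order with GENCODE lengths, 0.30 to 0.81 log2 units, was smaller than the SD over cells of either gene alone. The steps were not set against differences within cells, so whether neighbours differ was not tested.

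**Figure D1:**
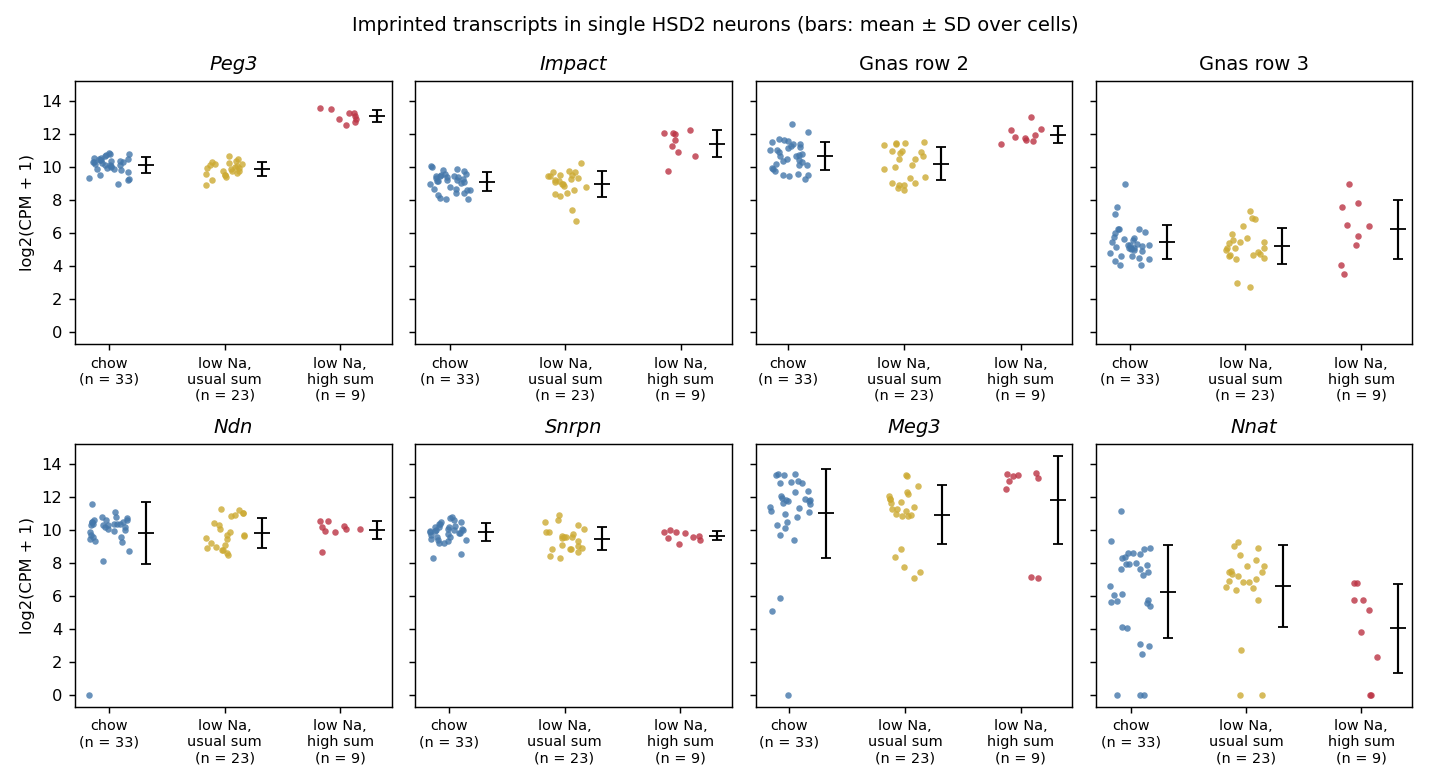
Level of each member in every cell as log2(CPM + 1), with chow, usual-sum low-sodium and high-sum low-sodium cells side by side and the mean ± SD over cells in black; row 2 and row 3 are the second and the third Gnas line. Peg3 in the 9 high-sum cells (12.57 to 13.61) lies above all other cells, Ndn and Snrpn lie at like levels in the 3 sets, and Meg3 and Nnat spread widely.

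Peg3 encodes a large zinc-finger protein made from the paternal copy, linked in mice to maternal care and cell death. It was above 0 in 65 of 65 cells. In chow cells it had a lowest value of 9.01, a median of 10.27 and a highest value of 10.85 (mean 10.16 ± 0.48 SD, n = 33). In usual-sum low-sodium cells the values were 8.90, 9.93 and 10.68 (9.90 ± 0.42, n = 23). In high-sum cells they were 12.57, 13.09 and 13.61 (13.12 ± 0.35, n = 9). Chow and usual-sum cells overlapped almost fully, and the high-sum cells stood apart from both. The mean CPM was 1200, 993 and 9120. Among 151 genes with a mean of at least 9, 5 varied less than Peg3 over the 56 cells of usual sum, where its SD was 0.47 against a median SD of 0.67.

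Impact encodes a regulator that limits the amino-acid sensor kinase Gcn2 and is made in neurons from the paternal copy. In chow cells it ran from 8.05 through a median of 9.23 to 10.10 (9.13 ± 0.57). In usual-sum cells it ran from 6.72 through 9.19 to 10.26 (9.01 ± 0.79), and in high-sum cells from 9.80 through 11.67 to 12.24 (11.43 ± 0.82). The high-sum cells were thus higher on average, with an overlap of 1 cell at the lower edge.

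Gnas encodes the G-protein subunit that couples receptors to cAMP synthesis, and its locus, chr2:174284320-174346744, also yields XLas, Nesp55 and an antisense RNA, Nespas. Which transcripts the 3 Gnas lines stand for could not be told from the names. The first line was above 0 in 13 cells (20.0%), 10 of them on chow (of 33) and 3 on low sodium (of 32). The second line was the abundant one, at 10.70 ± 0.83 in chow (9.29 to 12.62, median 10.71), 10.22 ± 1.01 in usual-sum (8.65 to 11.55, median 10.48) and 11.99 ± 0.50 in high-sum cells (11.42 to 13.06, median 11.83). The third line lay far below it, at 5.45 ± 1.02, 5.20 ± 1.09 and 6.23 ± 1.78. Within a cell the second line exceeded the third by 5.28 ± 1.10 log2 units, and by at least 3.63 in each of the 65 cells.

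Snrpn and Ndn lie in the domain whose loss on the paternal chromosome causes Prader-Willi syndrome. Snrpn encodes a core protein of the splicing machinery made in neurons, and Ndn encodes necdin, a MAGE-family protein of postmitotic neurons. Snrpn ran from 8.29 through a median of 9.97 to 10.80 in chow cells (9.87 ± 0.57), from 8.33 through 9.56 to 10.93 in usual-sum cells (9.48 ± 0.70) and from 9.16 through 9.65 to 10.00 in high-sum cells (9.65 ± 0.27). The 3 ranges overlap. Ndn had medians of 10.29, 9.67 and 10.08 in the same sets, with means of 9.84 ± 1.89, 9.81 ± 0.90 and 10.01 ± 0.55. The wide SD in chow came with 1 cell, chow neuron 5, in which Ndn is listed at 0 although 1826843 reads were recovered there. In that cell 3 reads, the limit that a count of 0 allows for counting error, stand for 1.61 CPM, while the next lowest cell of the 65 is at 8.09. Ndn was above 0 in the other 64 cells (98.5%, exact 95% binomial interval 91.7 to 100%).

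Meg3, a long noncoding RNA read from the maternal copy of the Dlk1-Dio3 domain, had the highest mean of the members and the widest spread among abundant genes. Its SD over the 56 cells of usual sum was 2.36, and none of the other genes with a mean of at least 9 had a larger one. In chow cells it ran from 0 through a median of 11.78 to 13.38 (11.03 ± 2.71), in usual-sum cells from 7.08 through 11.30 to 13.35 (10.93 ± 1.79) and in high-sum cells from 7.11 through 13.19 to 13.45 (11.83 ± 2.69). The spread came from a low tail: 10 cells lay below 9, namely 3 chow, 5 usual-sum and 2 high-sum cells, and the other 55 averaged 11.94 ± 1.04. Chow neuron 1 is listed at 0 with 856639 reads, where 3 reads stand for 3.23 CPM, and the next lowest cell is at 5.06. Chow neuron 1 had 10.81 for Peg3 and 9.94 for Snrpn. Chow neurons 49 and 23, also below 9 for Meg3, had Peg3 at 9.72 and 9.82, beside a chow mean of 10.16. In the 5 usual-sum cells below 9 Peg3 was 8.90, 9.26, 9.39, 9.53 and 10.24, beside a usual-sum mean of 9.90. Snrpn in these 5 ran from 9.07 to 10.29, beside a mean of 9.48. The 2 high-sum cells had Peg3 at 12.73 and 13.31, beside a mean of 13.12. Whether low Meg3 goes with Peg3 or Snrpn was not tested.

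Rian, a noncoding RNA read from the same maternal strand downstream of Meg3, gave a second look at those cells. In the 5 usual-sum cells with Meg3 below 9, Rian averaged 3.52 (0 to 5.48), against 7.51 (5.33 to 8.57) in the 18 others. In chow cells Rian was 7.03 in the 3 cells with low Meg3 and 7.13 in the 30 others, and in high-sum cells 10.45 in 2 and 9.63 in 7. The limit of 9 was set after the values were seen. Low Meg3 and low Rian thus came together in usual-sum low-sodium cells and not in the other sets, a difference that was not tested.

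Nnat encodes neuronatin, a small proteolipid of the endoplasmic reticulum linked to calcium stores and hormone release, and had the lowest share of cells among the single-line members. It was above 0 in 58 cells (89.2%, exact interval 79.1 to 95.6%). The 7 cells at 0 are chow neurons 19, 29 and 68 and low-sodium neurons 6, 34, 45 and 50, the last 2 of them high-sum cells, and there 3 reads stand for 3.53 to 26.3 CPM. In chow cells Nnat reached 11.14 with a median of 7.25 (6.24 ± 2.82), in usual-sum cells 9.28 with a median of 7.18 (6.60 ± 2.47), and in high-sum cells 6.78 with a median of 5.17 (4.04 ± 2.69).

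Between diets the mean log2 level of no single-line member differed by 1 unit. Over all cells, low sodium minus chow was 0.64 for Peg3, 0.55 for Impact, 0.15 for Meg3, 0.03 for Ndn, -0.35 for Snrpn and -0.36 for Nnat, and 0.02 for the second Gnas line. The count past 1 unit was 0 of 6 in either direction, beside 3.93% of 10726 genes higher and 6.99% lower (genes with a mean of at least 1). The mean was higher on low sodium for 4 of 6, beside 42.1% of all genes, and the median over the 6 was 0.09, beside -0.12 over all genes. Each of these differences was smaller than the SD between low-sodium cells, and that of Peg3 was larger than its SD of 0.48 between chow cells. Taken instead on the log2 of mean CPM (plus 1), which weights the highest cells, the diet values were 1.45 for Peg3 and 1.10 for Impact, so that 2 of 6 were higher by at least 1 unit and 0 lower, beside 15.8% and 3.55% of genes.

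The positive Peg3 and Impact values came with the high-sum cells. Without them Peg3 was at -0.26 and Impact at -0.13, Meg3 at -0.10, Ndn at -0.03, Snrpn at -0.39, the second Gnas line at -0.48 and Nnat at 0.36. The mean was then higher on low sodium for 1 of 6, beside 43.1% of all genes, and the median was -0.11, beside -0.09; 0 of 6 passed 1 unit, beside 2.96% of genes higher and 6.73% lower. With all cells kept, the median over cells put Peg3 at -0.10 but Impact at 0.24, beside -0.01 over all genes. Snrpn stayed between -0.35 and -0.41 in these settings, and its medians were 9.97 in chow and 9.56 in all low-sodium cells. Elsewhere Snrpn was at -0.25 with size factors (cells scaled by the median ratio of widely detected genes) and -0.58 rescaled to one sum. Ndn and Meg3 depended on the 2 chow cells at 0: without these 2 cells the differences over all other cells were -0.27 and -0.18.

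**Figure D2:**
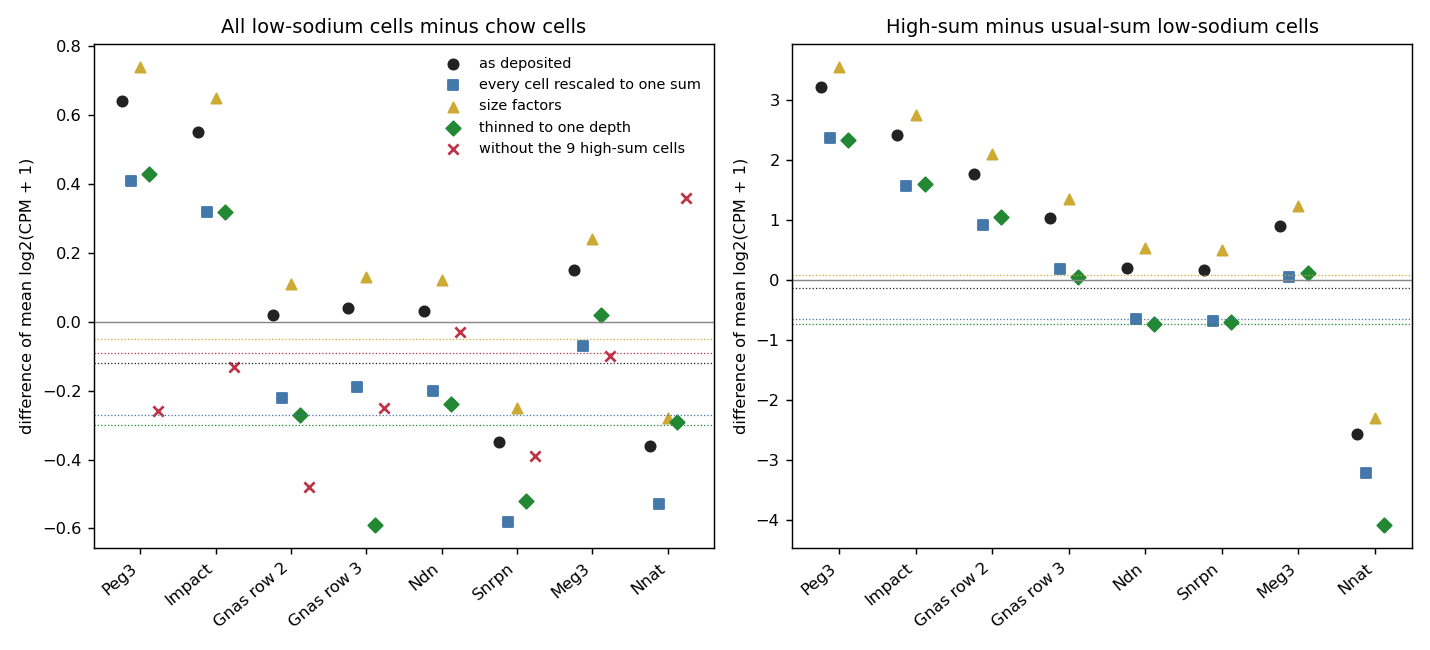
Difference of mean log2(CPM + 1) per member between all low-sodium and chow cells (left) and between high-sum and usual-sum low-sodium cells (right), under each scaling; dotted lines are the medians over all genes. On the left Peg3 is at 0.64 as deposited and -0.26 without the 9 cells, and on the right Peg3, Impact and the second Gnas line stay above 0 and Nnat below 0 under each scaling.

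Depth moved with some of these values and not with others. Over the 56 cells of usual sum, Spearman's correlation with the logarithm of reads was -0.91 for the second Gnas line, -0.76 for Ndn, -0.75 for Snrpn, -0.39 for Meg3, -0.17 for Peg3, 0.12 for Impact and 0.28 for Nnat. Level and depth come from the same library in each point, and the median over 8244 genes was 0.13. Among 144 genes with a mean of at least 9 in these cells the median was -0.48, and 12 lay below Gnas and 33 below Ndn. The relation was seen within each diet: for Ndn it was -0.65 in chow and -0.92 in usual-sum cells, and for Snrpn -0.68 and -0.84. Between the 14 shallowest cells (11 of them chow) and the 14 deepest (5 chow), mean Snrpn went from 10.05 ± 0.69 to 8.96 ± 0.39 and the second Gnas line from 11.39 ± 0.62 to 9.32 ± 0.44, while Peg3 was 10.09 ± 0.46 and 9.89 ± 0.40. The reads behind the second Gnas line went from a median of 417 to 2120, and those behind Peg3 from 174 to 3480. Usual-sum cells were deeper (median 1088850 reads) than chow cells (602244). With every cell thinned to 50000 reads and the high-sum cells left out, the diet difference was -0.32 for Snrpn, -0.57 for the second Gnas line and -0.04 for Ndn, against -0.39, -0.48 and -0.03 unthinned.

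**Figure D3:**
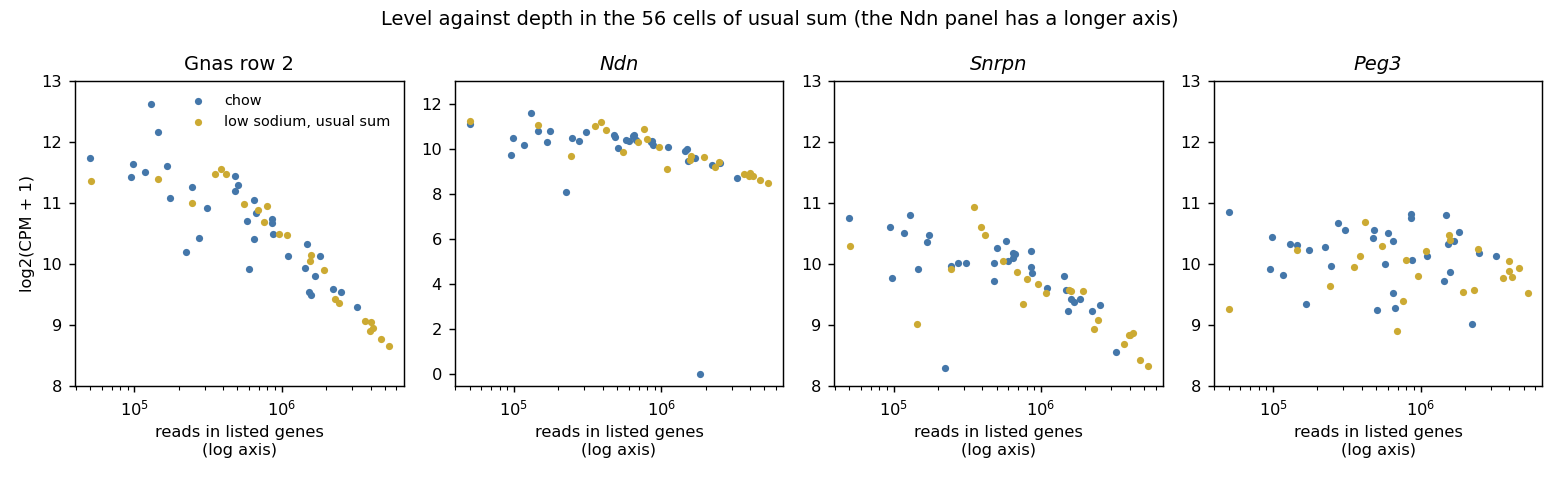
Level as log2(CPM + 1) against reads in listed genes (log axis) for the 56 cells of usual sum, chow in blue and low sodium in yellow. The second Gnas line, Ndn and Snrpn decline with depth in both diets (Spearman -0.91, -0.76 and -0.75), whereas Peg3 does not (-0.17); the point at 0 is chow neuron 5.

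The high-sum cells separated the members into groups. Against usual-sum cells the mean of Peg3 was higher by 3.22 log2 units (9.3-fold on the scale of CPM + 1), Impact by 2.42 and the second Gnas line by 1.77. Meg3 was higher by 0.90, Ndn by 0.20 and Snrpn by 0.17, each within its spread between cells. Nnat differed by -2.57, near its SD between cells of 2.47 in usual-sum and 2.69 in high-sum cells. Without cells that carried non-neuronal markers the Nnat difference was -1.49, beside 3.31 for Peg3 and 2.32 for Impact. Of the 6 single-line members 2 were higher by at least 1 unit and 1 lower, beside 20.6% and 22.4% of all genes, and 5 of 6 had the higher mean, beside 45.8%. The ranges did not overlap for Peg3, which was true of 0.718% of genes in that direction, and Peg3 also lay above all 56 other cells, beside 0.513% of genes. These cells were set apart by their CPM sum, so every such difference depends on the scale used. As deposited, the median over all genes was -0.14. With size factors Peg3 was at 3.55, Impact at 2.75 and the second Gnas line at 2.10. Meg3 was then at 1.24, Ndn at 0.54, Snrpn at 0.50 and Nnat at -2.30, beside a median over all genes of 0.08. With every cell rescaled to one sum the differences were 2.36 for Peg3, 1.56 for Impact, 0.91 for the second Gnas line, 0.05 for Meg3, -0.65 for Ndn, -0.69 for Snrpn and -3.22 for Nnat, beside a median over all genes of -0.65. The counts past 1 unit were again 2 and 1, beside 11.8% and 38.6% of genes. Ndn and Snrpn then lay near that median, and their sign depends on the scale. Peg3 still did not overlap the usual-sum cells (lowest 11.78 against highest 10.70), beside 0.242% of genes.

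Ratios within a cell do not depend on its scale. The log2 ratio of Peg3 to Snrpn was 0.29 ± 0.75 in chow, 0.42 ± 0.77 in usual-sum and 3.47 ± 0.44 in high-sum cells, and the high-sum values (2.74 to 4.38) lay above those of all other cells (-1.03 to 1.98). Peg3 to Ndn, without chow neuron 5, behaved alike, at 0.00 ± 0.74, 0.09 ± 1.00 and 3.10 ± 0.59. Ndn to Snrpn, from one domain, was even across the sets at 0.26 ± 0.37, 0.33 ± 0.56 and 0.36 ± 0.61. Within a cell Peg3 had a median rank of 35 among all lines in chow, 23 in usual-sum and 5 in high-sum cells, and Snrpn 54, 88 and 532. The second Gnas line, though higher in level, had a median rank of 19 in usual-sum and 23 in high-sum cells.

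Gene length moved with the same contrast. Over 10173 genes with a known exonic length, the median of high-sum minus usual-sum cells went from -1.46 for genes of up to 1000 bases to 0.97 for those over 12000. Set against genes of its own length bin, Peg3 was still higher by 2.64 (30 of 691 genes lay above it) and Impact by 2.47 (99 of 1809). Meg3 differed from its bin by -0.06 by the mean, which includes the low tail of both sets. Its medians were 13.19 in high-sum and 11.30 in usual-sum cells. Cells with Meg3 at 9 or more averaged 13.18 ± 0.33 (7 high-sum) and 11.77 ± 0.77 (18 usual-sum). Nnat differed from its bin by -1.96, and 1719 of 1755 genes lay above it. The high-sum cells were also shallower, with a median of 454882 reads, and 4 of the 9 carried non-neuronal markers, beside 14 of the 23 usual-sum cells. Peg3 was 13.02 ± 0.24 in those 4 and 13.19 ± 0.44 in the other 5.

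**Figure D4:**
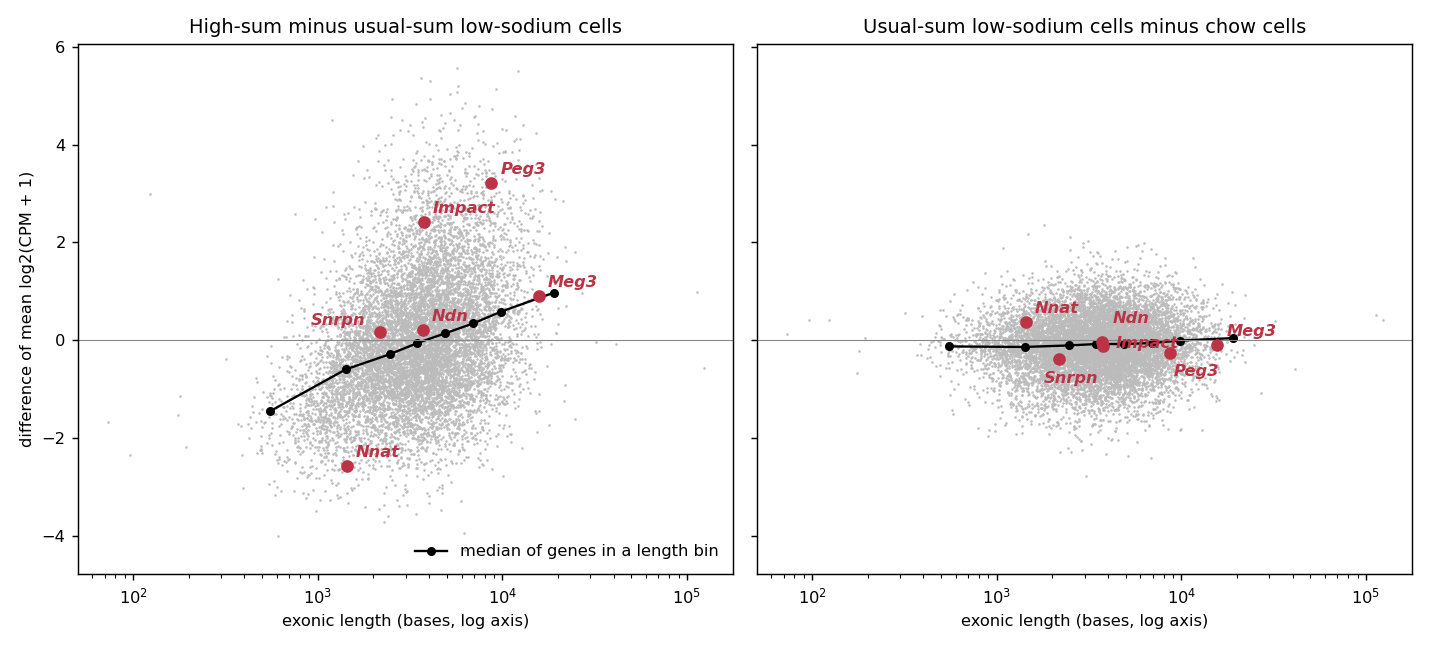
Difference of mean log2(CPM + 1) against exonic length (log axis) for 10173 genes in grey, with members in red and the median of each length bin in black; left, high-sum minus usual-sum low-sodium cells, and right, usual-sum low-sodium minus chow cells. On the left the bin medians climb from -1.46 to 0.97, with Peg3 at 3.22 and Impact at 2.42 above them and Nnat at -2.57 below; on the right the members lie close to 0.

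Neighbours in the same domains did not share one pattern. Usp29, read from the other side of the 96 bases printed for Peg3, was at 6.72 ± 1.54 in chow, 6.71 ± 2.06 in usual-sum and 7.20 ± 2.97 in high-sum cells, a difference of 0.49 between the last 2 sets and of -0.09 from genes of like length. In the Prader-Willi domain, Magel2, a MAGE-family partner of ubiquitin ligases on chr7:62376979-62381640, was at 3.49 ± 2.56, 2.49 ± 2.59 and 7.09 ± 2.68, whereas its close neighbour Ndn (chr7:62348277-62349928) was even. Magel2 lay above 0 in 25 of 33 chow, 14 of 23 usual-sum and 9 of 9 high-sum cells, and 7 of 2337 genes of like length had a larger difference than its 4.60. Snhg14, the long host of small nucleolar RNAs read past Snrpn and over Ube3a, was at 4.73, 4.43 and 7.27, and Ube3a, a ubiquitin ligase silenced on the paternal copy in neurons, at 7.60, 7.47 and 7.93. Snurf shares a transcript with Snrpn, and reads of such a pair cannot be told apart.

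In the Dlk1-Dio3 domain, Rian was at 7.12 ± 1.05, 6.64 ± 2.05 and 9.81 ± 1.05 in chow, usual-sum and high-sum cells, and Begain, a postsynaptic protein gene at its edge, at 6.20, 6.32 and 9.88. Rtl1, a retrotransposon-derived gene, was at 4.22, 4.87 and 5.47, Mirg at 3.37, 3.53 and 3.02, and Dlk1 near the floor with a mean of 1.17. Blcap, in whose intron Nnat lies, was at 7.73, 7.14 and 7.04, so it did not show the low Nnat level of the high-sum cells. Without strand information in the sources used here, reads of genes that overlap on opposite strands cannot be told apart.

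A wider set of 77 genes other than the members was drawn up by imprinted domain or as single imprinted genes. Whether each of them is imprinted in neurons was not examined. Of the 77, 52 were listed and 48 had a mean of at least 1. Between diets 26 of the 48 had the higher mean on low sodium, with 3 higher by at least 1 unit (Begain, Ago2 and Copg2) and 1 lower (Gatm), and a median of 0.06, beside 42.1%, 3.93%, 6.99% and -0.12 over all genes. Without the high-sum cells these counts were 18, 2 (Sgce and Asb4) and 2 (Gatm and Magel2) with a median of -0.14, beside 43.1%, 2.96%, 6.73% and -0.09 over all genes. Between high-sum and usual-sum cells 17 were higher by at least 1 unit and 7 lower, with a median of 0.48, beside 20.6%, 22.4% and -0.14 over all genes, and after rescaling 10 and 13 with a median of -0.15, beside 11.8%, 38.6% and -0.65. Rasgrf1, a Ras exchange factor read from the paternal copy in brain, was at 9.69 ± 0.52 in chow, 9.40 ± 0.51 in usual-sum and 12.09 ± 0.35 in high-sum cells. Its high-sum and usual-sum cells did not overlap, alone with Peg3 among the genes of these lists, beside 0.718% of all genes in that direction. The difference was 2.69 as deposited and 1.84 after rescaling, where its overlap is not given here. Nap1l5, an abundant paternally read gene, was at 10.08, 9.82 and 9.92. In the Peg13 domain, Ago2 (5.87, 6.64 and 9.23), Trappc9 (6.10, 6.27 and 8.99) and the potassium channel gene Kcnk9 (1.55, 1.14 and 5.04) were higher in high-sum cells and Chrac1 lower (5.22, 6.07 and 2.98). Of 14 genes that set or keep imprints 11 had a mean of at least 1, of which 0 were higher and 1 lower by 1 unit between diets, the latter Zfp57 at 2.58 in chow and 1.55 on low sodium. Without the high-sum cells 1 was higher (Dnmt1, the methylation-copying enzyme, by 1.11) and 0 lower, with Zfp57 at -0.93. Trim28, the corepressor of Zfp57, was at 6.32 in chow and 5.98 on low sodium.

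**Figure D5:**
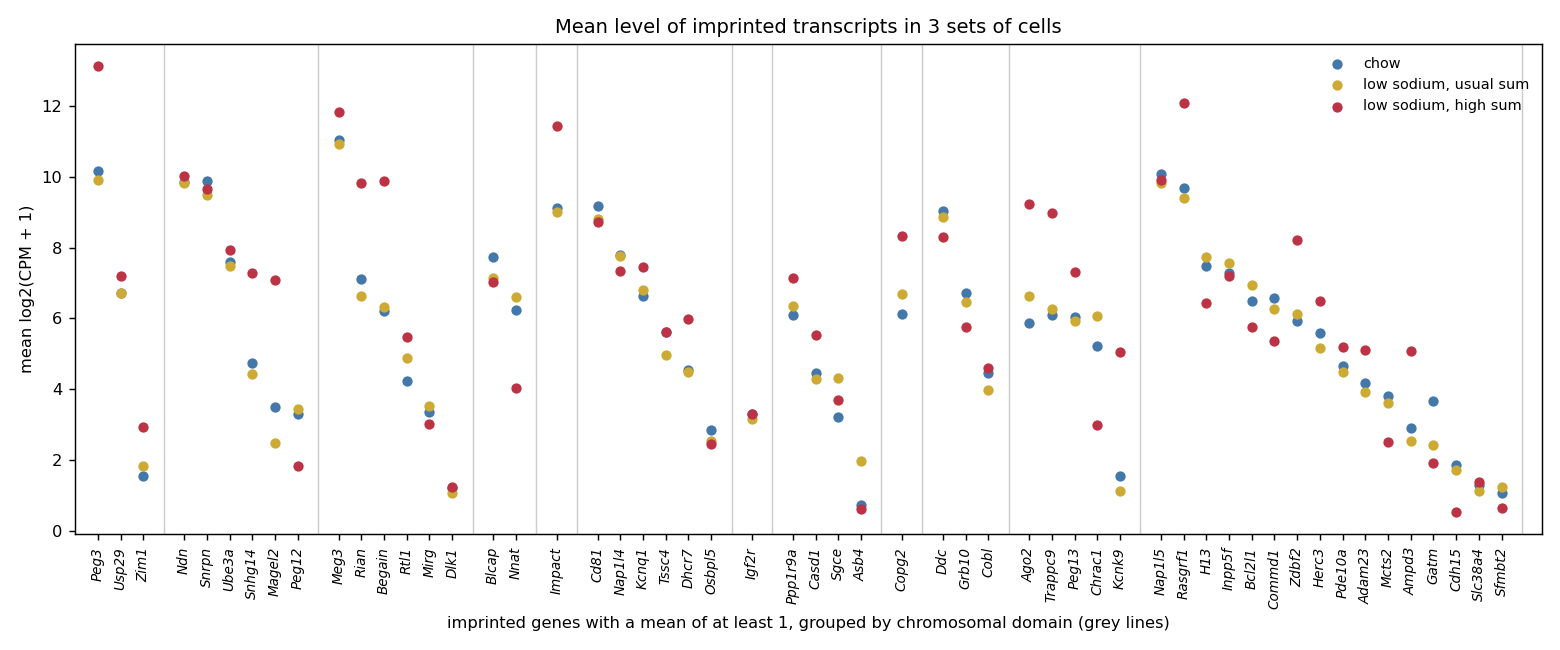
Mean log2(CPM + 1) of the genes drawn up by imprinted domain or singly, with a mean of at least 1 and members included. Chow cells are blue, usual-sum cells yellow and high-sum cells red, with grey lines between domains. Blue and yellow points lie close together for most genes, while red points lie far above them for Peg3, Magel2, Rian, Begain, Ago2 and Rasgrf1 and below them for Nnat and Chrac1.

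Genes that work with the members were counted in the same way, to be read against the same shares of all genes: 3.93% higher and 6.99% lower between diets, 2.96% and 6.73% without the high-sum cells, 20.6% and 22.4% in high-sum cells, and 11.8% and 38.6% there after rescaling. Of the Gs pathway of Gnas, 21 other genes had a mean of at least 1, and between diets 1 was higher by 1 unit (the G-protein gamma gene Gng4, 4.59 and 5.67) and 0 lower. Without the high-sum cells 0 were higher and 2 lower, namely the cyclase genes Adcy2 and Adcy6. In high-sum cells 10 of the 21 were higher and 2 lower, and after rescaling 3 and 6. The kinase subunit genes Prkaca (7.38 in usual-sum and 9.47 in high-sum cells) and Prkar1a (9.53 and 11.18) were among the 10. Beside Snrpn, 14 genes for core (Sm) proteins, other splicing-particle proteins and assembly factors were counted. Of these 14, 0 were higher and 8 lower in high-sum cells, with a median of -1.09, beside -0.14 over all genes. After rescaling 0 were higher and 10 lower, with a median of -1.84, beside -0.65. These genes have 1055 to 3036 exonic bases, and the medians of all genes of 1001 to 2000 and of 2001 to 3000 bases were -0.60 and -0.29 in this contrast. Snrpn itself was at 0.17, and at -0.69 after rescaling. Snrpb, the ubiquitous counterpart of Snrpn, was at 7.19 in chow, 6.66 in usual-sum and 6.00 in high-sum cells. Between diets 0 of these 14 differed by 1 unit in either direction, and without the high-sum cells 1 was higher (Snrpa1, by 1.02).

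Of 10 MAGE genes and partners beside Ndn, 0 differed by 1 unit between diets, and 1 was lower without the high-sum cells (Magel2). Maged1, the most abundant, was at 10.68, 10.32 and 10.74 in the 3 sets. Of 12 genes of the Gcn2 arm around Impact, 0 were higher and 1 lower between diets (Eif2b1, 4.73 in chow and 3.72 on low sodium), and 0 differed by 1 unit without the high-sum cells, with Eif2b1 at -0.72. The kinase gene Eif2ak4 was even at 4.31, 4.45 and 4.66 in chow, usual-sum and high-sum cells. In the high-sum cells 2 of the 12 were higher and 4 lower, and after rescaling 1 and 6, with Eif2b5 at 8.59 against 5.30 as deposited. Of 7 calcium-store genes beside Nnat, Ryr2 was higher by 1 unit on low sodium (5.60 and 6.95), and without the high-sum cells it was at 6.09 and 1 gene was lower by 1 unit (Ryr3, at -1.19). Among 7 Peg3 partners 0 differed by 1 unit between diets, and 1 was lower without the high-sum cells (Trp53, at -1.16). Bax, a cell-death effector, was at 5.38 in chow and 5.22 on low sodium. The chromatin genes linked to Meg3 (3 with a mean of at least 1) had a median of 0.39 between diets, and of 0.30 without the high-sum cells, with 0 past 1 unit in either.

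Members differed in how their level varied from cell to cell. Over the 56 cells of usual sum, Ndn, Snrpn and the second Gnas line varied together, with Spearman coefficients of 0.75 (Ndn and Snrpn), 0.81 (Ndn and Gnas) and 0.80 (Snrpn and Gnas), and all 3 also go with depth as given above. Peg3 had coefficients of -0.03 to 0.30 with the other members. Among 8243 other genes, the 3 most like Ndn were Tppp3 (0.88), Stmn3 (0.87) and Bex2 (0.86), and those most like Snrpn were Tuba1a (0.89), Nme7 (0.87) and Ywhah (0.87). For the second Gnas line, Tuba1b (0.95), Aldoa (0.95) and Hsp90ab1 (0.94) came first. For Meg3 they were Snhg11 (0.95), Malat1 (0.81) and Pisd-ps3 (0.71), of which Snhg11 and Malat1 are long noncoding RNAs. The genes named for Peg3 (Astn1 0.49 and Iqsec3 0.47), Nnat (Sall1 0.52, Gpx3 0.52 and Dnal4 0.51) and Impact (St8sia3 0.62 and Scoc 0.60) were less close. These coefficients are descriptions over cells that share library depth and composition within each point.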

How the data were processed

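RNA of 65 single neurons was measured with Smart-Seq2 and Nextera XT, per the labels' protocols. The deposited unit is log2(CPM + 1), one value for each gene in each cell. Per the submitters' processing notes, the tools were featureCounts 1.4.6, HISAT2 2.0.5, SAMtools 0.1.19, Picard 2.5.0 and bcl2fastq with mm10 and GRCm38, and no source used here states settings, annotation or scaling total. CPM are 2 to the power of the value, minus 1. In each cell 100.0% of values up to 20 steps were whole multiples of the smallest step within 0.1 steps. Higher deposited values are rounded on the log scale, so their reads are approximate, and no count test was run. Intervals and the limit of 3 reads cover counting error only, and no molecular identifiers are named.

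Background genes were the 10726 uniquely named genes with a mean of at least 1, and a difference was counted past 1 log2 unit. Exonic lengths are unions of exons in GENCODE M21 basic. A cell carried non-neuronal markers when at least 3 markers of 1 type exceeded 10 CPM. The genes named are the members, of each list up to 6 by mean level and up to 4 by diet difference among those with a mean of at least 1, and the 3 genes with the highest Spearman coefficient per member, without predicted models; some genes that this rule took are left out of the text. Members and lists were chosen with earlier results of these data known. Alternatives were other pseudocounts, scalings, thinning to 50000 reads, medians and cells left out. The code was tested on simulated data. Python 3.11.15, numpy 2.4.6, pandas 2.3.3, scipy 1.17.1 and matplotlib 3.10.9 were used.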

Additional observations from a re-analysis of the deposited data

Results flagged for a closer look

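Values far from the others of their set were looked for in the 9 high-sum low-sodium cells, with Dixon's ratio (the gap to the next value over the whole range) against its 95% critical value. Chance marks about 1 in 20 such groups where values are normally spread, which lines with many zeros are not, and 9 lines were looked at. Ndn in low-sodium neuron 47 was the lowest of the 9 at 8.68, with the other 8 at 9.88 to 10.53 (ratio 0.649). The first Gnas line was at 9.08 in low-sodium neuron 50 and at 0 in the other 8. Its ratio of 1.0 would arise from any value above 0 beside 8 zeros, so the ratio cannot mark it as unusual. That line was above 0 in 13 of all 65 cells. In low-sodium neuron 50 Peg3 (12.57), Impact (9.80) and the third Gnas line (3.51) were the lowest of the 9, and Nnat was at 0.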

How the results depend on the processing

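No paired analysis was possible because the neuron numbers only name cells and no test was run. Without the 9 high-sum cells, 1 of 6 members had the higher mean on low sodium in place of 4, also after rescaling (1) or thinning (1). With all cells the count was 1 by the median over cells, 2 after rescaling to one sum, 2 without the 20 highest genes and 2 without the 2 chow cells with Ndn or Meg3 at 0. Against usual-sum cells, 5 of 6 were higher in high-sum cells as deposited, 3 after rescaling and 3 after thinning, and the median over the 6 went from 0.55 to -0.30 and -0.29. The rank of the second Gnas line within a cell was lower by 4 places in high-sum cells, against its higher level. Counts of members past 1 unit between diets were 0 in all alternatives run but the log2 ratio of mean CPM plus 1, which gave 2 members higher (Peg3 and Impact). The cause of these changes was not tested. Of the other alternatives, 60 for these summaries and 233 for single members stayed within the spread between cells or 1.5 times the count, and 19 for single members moved by more. Leaving out single cells put the Ndn diet difference between -0.28 and 0.08 and that of Meg3 between -0.19 and 0.29. With 1 read worth up to 16.1 CPM in the shallowest cell, low levels of Nnat and the first Gnas line are the least certain.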
